A study of Mus musculus with 11 samples.

Results

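The genes described here are 10 that are expressed by endothelial cells, the cells that line blood vessels: Pecam1, Cdh5, Kdr, Flt1, Tie1, Tek, Emcn, Esam, Egfl7 and Vwf. They were chosen by name as known endothelial genes, with earlier results of these data known, and all 10 were found among the 28284 genes of the table and passed the filter on low counts. They were followed through 11 OvTrpMyc cell lines, each sequenced as 1 library of polyA RNA. The lines came from 7 heterozygous Ovgp1-Trp53-R270H-Myc mice on the C57BL/6 background, in which an Ovgp1 promoter, active in secretory cells of the oviduct, drives mutant p53 (R270H) and Myc from the Trp53 locus. There were 7 ovary lines (LOV and ROV of F364, LOV and ROV of F318, and ROV of F326, F319 and F339), 2 uterus lines (F333 and F319), 1 splenic tumor line (F326) and 1 peritoneal tumor line (F361), all grown from minced tissue in RPMI 1640 without treatment. According to the authors, the F361 tumor cells no longer expressed the mutant p53, although RNA reads covered that codon. ROV and LOV are written as in the sample titles, and the labels call the cells ovarian cancer. 4 mice gave 2 lines each, so the lines are not fully independent. No line had a second library, and the spread between lines is the only error available.

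Endothelial cells hold to each other through VE-cadherin (Cdh5), PECAM-1 (Pecam1) and ESAM (Esam), and respond to vascular endothelial growth factor through the receptors Kdr and Flt1. Tie1 and Tek are the receptor pair of the angiopoietin pathway, in which Tek binds the ligands. Endomucin (Emcn) is a sialomucin of capillaries and veins, Egfl7 is a protein secreted by endothelial cells, and von Willebrand factor (Vwf) is stored in their Weibel-Palade bodies and released for clotting. In a line of tumor cells grown on plastic, cells other than the tumor cells are usually lost, so such genes are ordinarily low.

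Sequences upstream of 3 of the genes are shown because their levels parted in F339 ROV. Emcn and Flt1 were well above their levels in F318 LOV and both uterus lines there, and Tek was not. Among all 11 lines F339 ROV ranked first for Emcn but only 7th for Flt1. They are the RefSeq promoter windows of GRCm38.p6, ending at the base before the annotated gene start, 5′ to 3′ on the strand of the gene, and capitals mark AGGAAG or CGGAAG on either strand, letters that hold the core bound by ETS factors. The Emcn window is chr3:137340828-137341066 on the plus strand.
Emcn: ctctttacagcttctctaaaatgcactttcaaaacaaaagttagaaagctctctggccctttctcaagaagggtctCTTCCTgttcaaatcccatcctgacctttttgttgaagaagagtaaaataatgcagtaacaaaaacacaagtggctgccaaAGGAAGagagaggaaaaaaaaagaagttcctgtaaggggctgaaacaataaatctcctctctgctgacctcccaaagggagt
The Flt1 window is chr5:147726012-147726261 on the minus strand.
Flt1: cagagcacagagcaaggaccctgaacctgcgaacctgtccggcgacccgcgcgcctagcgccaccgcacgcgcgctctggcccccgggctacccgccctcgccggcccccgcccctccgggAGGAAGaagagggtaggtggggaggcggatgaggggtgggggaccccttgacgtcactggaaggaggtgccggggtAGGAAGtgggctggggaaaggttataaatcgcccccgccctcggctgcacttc
The Tek window is chr4:94739039-94739288 on the plus strand.
Tek: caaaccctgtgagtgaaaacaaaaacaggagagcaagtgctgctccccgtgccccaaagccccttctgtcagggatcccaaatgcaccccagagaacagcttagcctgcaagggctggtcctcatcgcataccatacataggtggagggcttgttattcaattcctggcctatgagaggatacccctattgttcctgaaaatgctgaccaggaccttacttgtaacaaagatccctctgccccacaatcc
The Emcn and Flt1 windows each held 2 matches and the Tek window held 0. Among the others, the Tie1 window held 2, the Egfl7 windows held 3, 1 and 0 and the Kdr window held 0, and these genes were all low in F339 ROV. Windows were found for 6 of the 10 genes, 8 windows in all, and 5 of the 8 (62.5%) held a match, against 39.2% of the 32851 promoter windows in the table. A match is a run of letters and was not tested as a binding site.

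Libraries 1 to 7 (both F364 lines, both F326 lines, the F361 line, and ROV of F319 and F318) and libraries 8 to 11 (8, F339 ROV; 9, F318 LOV; 10, F319 uterus; 11, F333 uterus) stood apart in transcripts of skeletal muscle. The muscle fiber genes Myh4 and Actn3, a fast myosin and the fast-fiber actinin, summed to 15475 to 42683 CPM (counts scaled to a library total of 1000000) in libraries 1 to 7, and to 423.2 to 3355 CPM in libraries 8 to 11. The 4 Y-linked genes listed summed to 127.8 to 173.8 CPM and to 1.75 to 19.2 CPM, although 9 of the lines were from ovaries or uteri. The authors took pieces of uterus and ovary from the mice used, so the tumor lines too came from females. Totals ran from 13580525 to 22333181 counts in libraries 1 to 7 and from 21542612 to 27044598 in libraries 8 to 11. The label of ovarian cancer cells was checked on 10 epithelial and 9 mesenchymal genes: the first list summed to 3.42 to 164.0 CPM over libraries 1 to 7 and 10.2 to 43.5 CPM over libraries 8 to 11, and the second to 1604 to 15575 CPM and 19544 to 35049 CPM. Epcam, a defining epithelial gene, was at most 2.12 CPM in any line. The number of a library is the sample description's, and nothing in the labels calls it a batch. All splits by library number below rest on this division, which was noticed in the muscle and Y-linked counts of the same libraries.

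The 10 genes were well above detection in libraries 1 to 7 and 7 of them were lower in every library of 8 to 11 than in any of 1 to 7. Of all 15954 genes tested, 17.1% did the same and 26.1% lay apart in the other direction. The 3 exceptions, Cdh5, Flt1 and Emcn, overlapped through 1 line, F339 ROV. With that line set aside, all 10 genes were lower in the other 3 libraries than in any of libraries 1 to 7, against 18.8% of all genes. The genes were low rather than absent: 39 of the 40 values in libraries 8 to 11 were above 3 counts, which correspond to 0.111 to 0.139 CPM in those libraries. The muscle and Y-linked transcripts given above differed between the same libraries, and their part in this result was not tested. In bulk RNA, fewer cells of a type and less RNA per cell cannot be told apart.

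**Figure D1:**
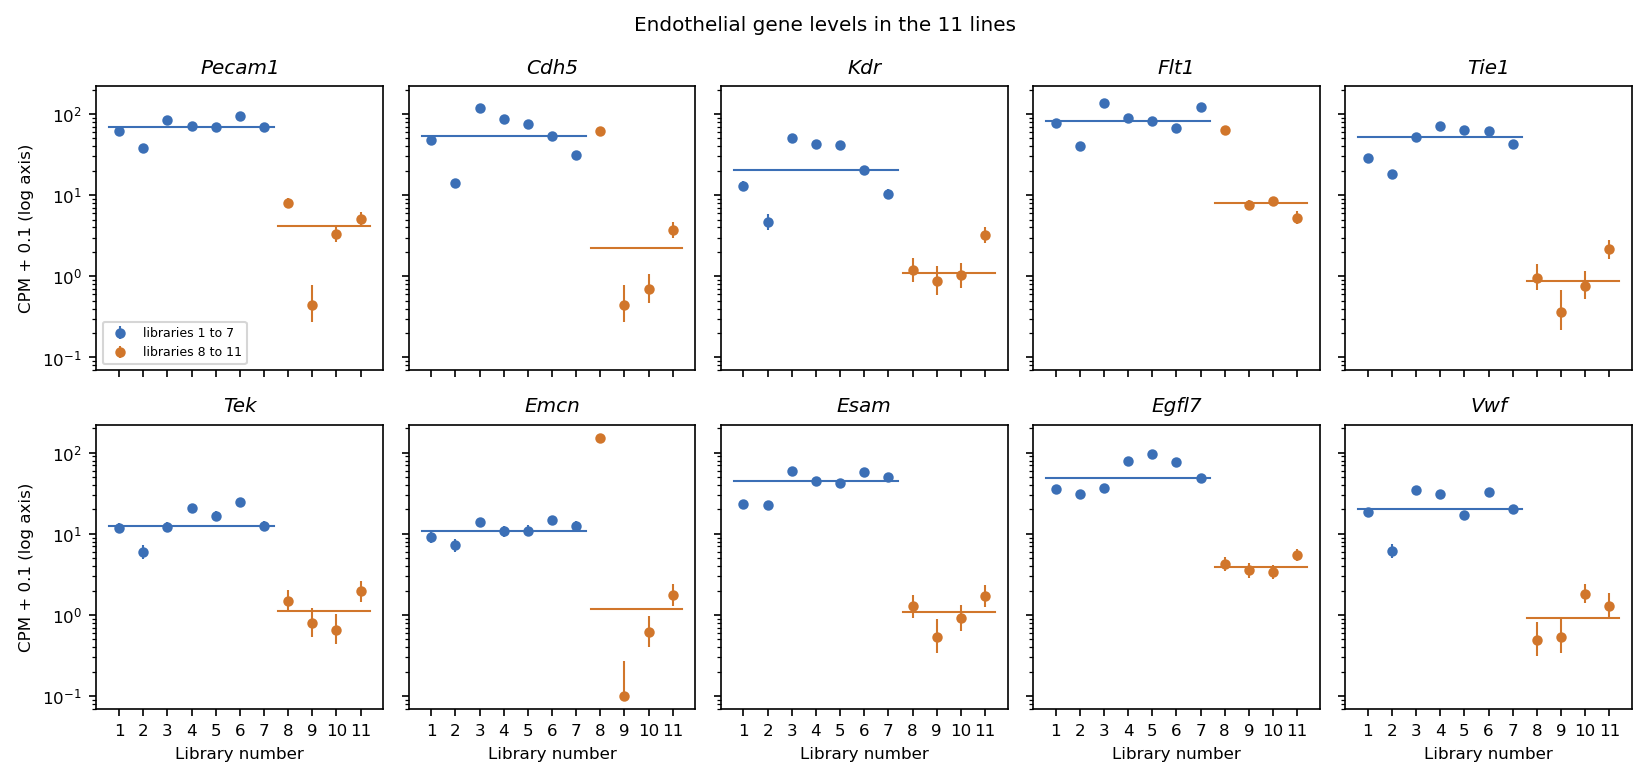
Level of each of the 10 endothelial genes in the 11 libraries, in CPM plus 0.1 on a log axis, against library number (blue, libraries 1 to 7; orange, libraries 8 to 11). Bars are 95% Wilson intervals of the counts and horizontal lines are set medians. Emcn at 153.5 CPM, Cdh5 at 61.9 CPM and Flt1 at 63.8 CPM in library 8 stand above the other orange points.

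Among the genes of endothelial junctions, Pecam1 (chromosome 11, 106654217 to 106750628, minus strand, in GRCm38) ran from 37.6 to 94.3 CPM in libraries 1 to 7, with a median of 69.7 CPM. It was at 7.84 CPM in F339 ROV, 0.349 CPM in F318 LOV, 3.18 CPM in F319 uterus and 5.01 CPM in F333 uterus. The sets did not overlap, and F318 LOV was the lowest line by a wide margin. Between the sets Pecam1 fell by 4.45 on the log2 scale (SE 0.65, adjusted p = 0.000203 by edgeR's quasi-likelihood test).

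Esam, an adhesion molecule of endothelial tight junctions (chromosome 9, 37528078 to 37538319, plus strand), ran from 22.9 to 59.4 CPM in libraries 1 to 7, with a median of 44.7 CPM. It was at 1.18 CPM in F339 ROV, 0.436 CPM in F318 LOV, 0.813 CPM in F319 uterus and 1.62 CPM in F333 uterus. Every library of the second set was below every library of the first. Esam fell by 5.74 on the log2 scale (SE 0.48, adjusted p = 2.67e-05, edgeR), the lowest adjusted p among the 10 genes.

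Cdh5 (chromosome 8, 104101625 to 104144511, plus strand) spread more widely, from 14.0 CPM in the F326 splenic tumor line to 117.0 CPM in F364 LOV, with a median of 53.9 CPM. In libraries 8 to 11 it was at 61.9 CPM in F339 ROV, 0.349 CPM in F318 LOV, 0.592 CPM in F319 uterus and 3.62 CPM in F333 uterus. F339 ROV thus ranked within libraries 1 to 7, and the other 3 lines lay below them. The log2 fold change over all lines was -2.32 (SE 1.18) with an adjusted p of 0.109 by edgeR, and without F339 ROV it was -5.64 (adjusted p = 0.00126). With the mouse as a block it was -6.69 (adjusted p = 0.0112, edgeR), and DESeq2 gave -2.35 (adjusted p = 0.0334). Cdh5 overlaps the antisense gene Gm29682, and the strand setting of the counting is not given in the sources used here, so its counts are uncertain to that extent.

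Of the growth factor receptors, Kdr, the main signalling receptor for Vegfa (chromosome 5, 75932827 to 75978458, minus strand), ran from 4.56 to 51.1 CPM in libraries 1 to 7, with a median of 20.6 CPM. It was at 1.10 CPM in F339 ROV, 0.786 CPM in F318 LOV, 0.924 CPM in F319 uterus and 3.16 CPM in F333 uterus. The gap between the sets was narrow, from 3.16 to 4.56 CPM, and the 11.2-fold range within libraries 1 to 7 was the widest of the 10 genes. Kdr fell by 4.50 on the log2 scale (SE 0.82, adjusted p = 0.000768, edgeR). With the mouse as a block its log2 fold change was -4.30 and its adjusted p 0.0548.

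Flt1, the high-affinity receptor that also binds Vegfb and Pgf (chromosome 5, 147561604 to 147726011, minus strand), ran from 40.0 to 135.6 CPM in libraries 1 to 7, with a median of 81.9 CPM. It was at 63.8 CPM in F339 ROV, 7.42 CPM in F318 LOV, 8.32 CPM in F319 uterus and 5.15 CPM in F333 uterus. The sets overlapped through F339 ROV, and the other 3 lines lay close together below all of libraries 1 to 7. Flt1 fell by 2.45 on the log2 scale over all lines (SE 0.68, adjusted p = 0.00844, edgeR). Without F339 ROV its log2 fold change was -4.004 (adjusted p = 0.00018), and among the ovary lines alone the value was -1.83 with an adjusted p of 0.0838 (edgeR).

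Tie1 (chromosome 4, 118471191 to 118490061, minus strand) showed the largest change of the 10. It ran from 18.3 to 70.3 CPM in libraries 1 to 7, with a median of 51.7 CPM, and was at 0.863 CPM in F339 ROV, 0.262 CPM in F318 LOV, 0.666 CPM in F319 uterus and 2.04 CPM in F333 uterus. The sets were far apart. Tie1 fell by 5.98 on the log2 scale (SE 0.65, adjusted p = 4.96e-05, edgeR).

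Its partner Tek, the angiopoietin receptor (chromosome 4, 94739289 to 94874976, plus strand), ran from 5.95 to 24.5 CPM in libraries 1 to 7, with a median of 12.4 CPM. It was at 1.37 CPM in F339 ROV, 0.698 CPM in F318 LOV, 0.555 CPM in F319 uterus and 1.86 CPM in F333 uterus. The sets did not overlap, and F339 ROV was among the low lines. Tek fell by 4.05 on the log2 scale (SE 0.51, adjusted p = 9.70e-05, edgeR).

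Emcn, whose upstream sequence is printed above (gene body on chromosome 3, 137341067 to 137432185, plus strand), was the most even of the 10 in libraries 1 to 7, from 7.15 to 14.7 CPM with a median of 10.9 CPM. It was at 153.5 CPM (3916 counts) in F339 ROV, 0 counts in F318 LOV, 0.518 CPM in F319 uterus and 1.67 CPM in F333 uterus. The 0 counts of F318 LOV allow a level of up to 0.131 CPM by the floor of 3 counts, and of up to 0.168 CPM by the Wilson interval. F339 ROV was above every other line and the other 3 libraries of its set were below all of libraries 1 to 7. Over all lines the log2 fold change was 1.37 (SE 1.26, adjusted p = 0.366, edgeR), and without F339 ROV it was -4.22 (adjusted p = 0.00317), so 1 library set its sign. With the mouse as a block it was -6.27 (adjusted p = 0.0102, edgeR).

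Of the secreted proteins, Egfl7 (chromosome 2, 26580014 to 26593120, plus strand) ran from 30.6 to 96.2 CPM in libraries 1 to 7, with a median of 48.1 CPM. It was at 4.16 CPM in F339 ROV, 3.45 CPM in F318 LOV, 3.25 CPM in F319 uterus and 5.38 CPM in F333 uterus. Its low values were the most alike of the 10 genes across libraries 8 to 11, and they did not overlap the first set. Egfl7 fell by 4.18 on the log2 scale (SE 0.43, adjusted p = 4.16e-05, edgeR). The locus overlaps Agpat2 and Gm20532 and hosts Mir126a, so reads could be shared with neighbours.

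Vwf (chromosome 6, 125546774 to 125686679, plus strand) ran from 6.01 to 34.2 CPM in libraries 1 to 7, with a median of 20.2 CPM. It was at 0.392 CPM in F339 ROV, 0.436 CPM in F318 LOV, 1.74 CPM in F319 uterus and 1.21 CPM in F333 uterus. Both uterus lines were above both ovary lines of this set, with no overlap with libraries 1 to 7. Vwf fell by 4.94 on the log2 scale (SE 0.63, adjusted p = 0.000101, edgeR).

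In all, 8 of the 10 genes were lower in libraries 8 to 11 and 0 were higher at an adjusted p under 0.05, where 29.9% of the 15954 genes tested were lower and 28.6% higher. The median log2 fold change was -4.31 for the 10 genes and 0.03 for all genes. Without F339 ROV all 10 were lower, with 28.1% of genes lower, and among the ovary lines alone 7 were lower, with 22.1% of genes lower. With the mouse as a block, which rests the comparison on F318 and F319, 9 were lower against a background of 10.7%. In either direction 58.5% of all genes were called between the library sets, so much of the transcriptome differed along with these genes.

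**Figure D2:**
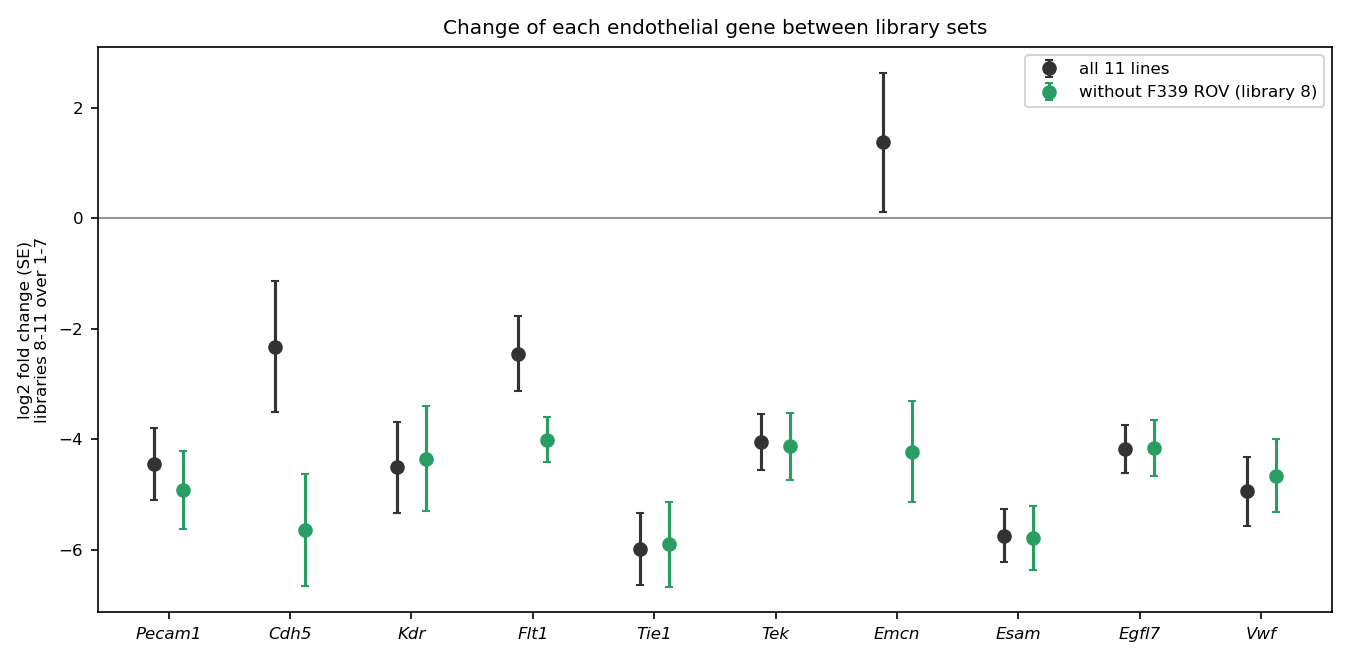
log2 fold change of libraries 8 to 11 over libraries 1 to 7 for each of the 10 genes, with its SE as bars, over all 11 lines (black) and without F339 ROV (green). 7 genes keep nearly the same value, Cdh5 and Flt1 move down, and Emcn moves from 1.37 to -4.22.

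The 2 mice with a line in each library set allowed a comparison within an animal. In F318, all 10 genes were lower in LOV (library 9) than in ROV (library 7), by 13.0-fold for Kdr to 199.6-fold for Pecam1, with a median of 68.2-fold. Emcn, at 0 counts in F318 LOV, was at least 95.9-fold lower against a floor of 3 counts in that library. In F319, all 10 were lower in the uterus line (library 10) than in ROV (library 6), by 7.99-fold for Flt1 to 91.7-fold for Tie1, with a median of 29.0-fold. Of all genes, 34.9% were lower in both pairs. Each pair is 1 library against 1 and has no replicate check of its own, and in F319 the tissue differs as well.

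Within libraries 1 to 7 the genes also varied together in 1 line. The F326 splenic tumor line had the lowest level of all 10, against 18.0% of all genes, while F326 ROV from the same mouse was at 1.49-fold to 9.26-fold these levels. F364 LOV held the highest level of 5 genes, F319 ROV of 3, and F326 ROV and F361 of 1 each. Among libraries 8 to 11, F318 LOV had the lowest level of 6 genes, F333 uterus the highest of 5 and F339 ROV the highest of 4.

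Per kilobase of exon, Egfl7, Cdh5 or Esam led the 10 genes in each of libraries 1 to 7, and Vwf, which has the longest exon sequence, was the lowest except in F318 ROV. In F361, for example, Egfl7 was at 26.9 CPM per kilobase, Cdh5 at 18.0 and Vwf at 1.05. In F318 LOV and both uterus lines Egfl7 led as well, at 0.963, 0.909 and 1.50 CPM per kilobase. F339 ROV had another order, with Emcn at 28.4 CPM per kilobase, Cdh5 at 14.7, Flt1 at 4.72 and Pecam1 at 1.26, ahead of Egfl7 at 1.16.

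Tissue is the grouping that the labels give, and both uterus lines are in libraries 8 to 11. With the library set as a covariate, 0 of the 10 genes and 0 of 18554 genes (0.0%) differed between the uterus and ovary lines by edgeR's quasi-likelihood test, and 914 genes (4.93%) had an unadjusted p under 0.05. With DESeq2, 122 genes were called, of which 0 were among the 10. Flt1, Emcn and Vwf were the 3 of the 10 with an unadjusted p under 0.05, and their log2 fold changes of uterus over ovary were -2.34, -6.01 and 1.86 (SE 0.80, 2.19 and 0.46). All 3 values include F339 ROV on the ovary side, which had the highest Emcn and the lowest Vwf of the 11 lines. Without it Flt1 was at -0.11 and Vwf at 1.77, and Emcn turned to 7.25, a fitted value against a line at 0 counts that depends on the prior count. None of the 10 genes was called in that fit either. A single splenic and a single peritoneal line gave no test of those sites.

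The next question was whether the 10 genes kept a fixed ratio to the muscle genes Myh4 and Actn3, as they would if all of these transcripts came together in constant proportion. The sum of the 10 genes varied 42.0-fold in CPM over the 11 lines and 17.4-fold per 1000 Myh4 plus Actn3 counts. In libraries 1 to 7 there were 7.49 to 27.0 endothelial counts per 1000 muscle counts, a 3.61-fold range with a median of 14.0. The ratio was 130.6 in F339 ROV (95% exact binomial interval 127.5 to 133.8), 33.5 in F318 LOV (29.9 to 37.4), 13.5 in F319 uterus (12.4 to 14.7) and 9.16 in F333 uterus (8.47 to 9.89). The uterus lines were thus inside the range of libraries 1 to 7 and the ovary lines above it. The ratio has no test, since the muscle counts were what set the libraries apart.

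Without Emcn, Cdh5 and Flt1, the genes singled out by their values in F339 ROV, the 7 remaining genes varied 57.1-fold in CPM and 3.55-fold per 1000 muscle counts. They were at 4.61 to 16.4 counts per 1000 in libraries 1 to 7, and at 7.45 in F339 ROV, 15.2 in F318 LOV, 7.33 in F319 uterus and 6.05 in F333 uterus. All 4 lines were then inside the range of libraries 1 to 7, but the genes were left out for their values, so this supports nothing. In F318 LOV, 79 of the 147 counts were Egfl7. For scale, Actn3 to Myh4, both muscle genes, varied 2.02-fold over the 11 lines, and the Y-linked genes to the muscle pair varied 2.49-fold.

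**Figure D3:**
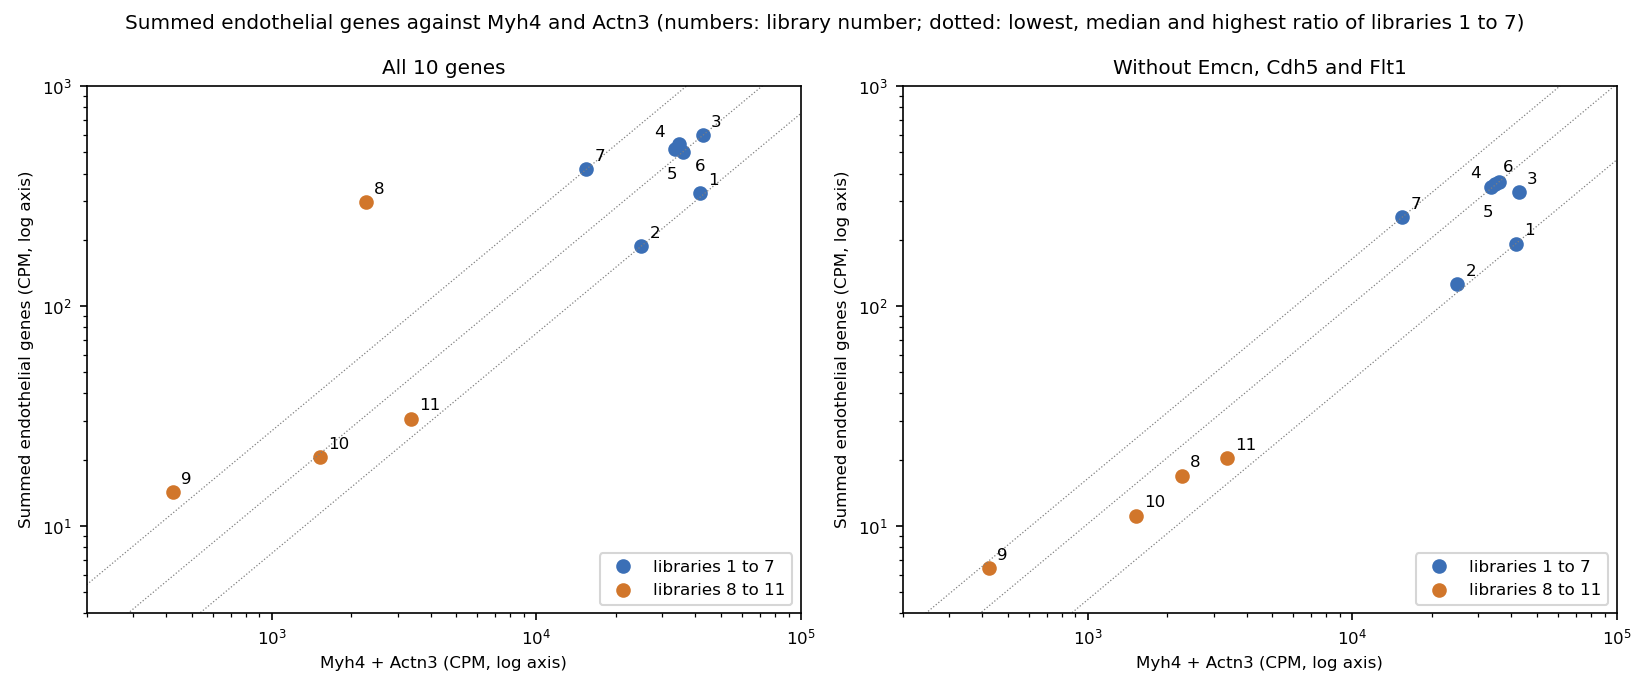
Summed CPM of the 10 genes (left) and of the 7 without Emcn, Cdh5 and Flt1 (right) against the summed CPM of Myh4 and Actn3, both axes logarithmic, 1 point per library with its number. Dotted lines are the lowest, median and highest ratio of libraries 1 to 7. On the left library 8 lies well above the lines and library 9 just above, and on the right all 4 orange points lie between them.

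Gene by gene the ratio was less even. Of the 40 values of the 10 genes in libraries 8 to 11, 21 were inside the gene's own range in libraries 1 to 7, 7 were above it and 12 below. Of the values of all genes in these libraries 8.2% were inside and 88.7% above. Since the muscle counts are low in libraries 8 to 11, a gene that did not fall lies above its range by construction. The shares over all genes therefore do not show that the 10 genes kept a ratio to muscle. The uterus lines had 7 genes inside and 3 below each, F339 ROV 4 inside, 3 above and 3 below, and F318 LOV 3 inside, 4 above and 3 below. Many of these values rest on few counts of the gene, so a place just outside the range is uncertain.

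Tie1 was below its range in all 4 lines, at 0.380 to 0.619 counts per 1000 muscle counts against 0.691 to 2.76 in libraries 1 to 7. In F319 uterus this was 18 counts of Tie1, where the lowest ratio of libraries 1 to 7 would give 28.4. In F318 LOV it was 6 counts against 6.70. The counting interval of F339 ROV (0.238 to 0.576) ended below the range, and those of F318 LOV (0.227 to 1.35), F319 uterus (0.260 to 0.693) and F333 uterus (0.442 to 0.817) reached into it. Esam was below its range in 3 of the 4, by less than the counting interval in each. Flt1 went the other way in 2 lines, with 28.1 in F339 ROV and 17.5 in F318 LOV against 1.60 to 7.78 in libraries 1 to 7, and in F333 uterus it was 1.54, just below that range. Egfl7 was inside its range of 0.846 to 3.11 in 3 lines and at 8.15 in F318 LOV (6.44 to 10.2). The vessel genes Gpihbp1 and Rgs5, chosen after values were seen, were uneven as well. Gpihbp1, which anchors lipoprotein lipase in capillaries, was below its range in all 4 lines. The pericyte gene Rgs5 was inside its range in 2 and above it in 2.

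**Figure D4:**
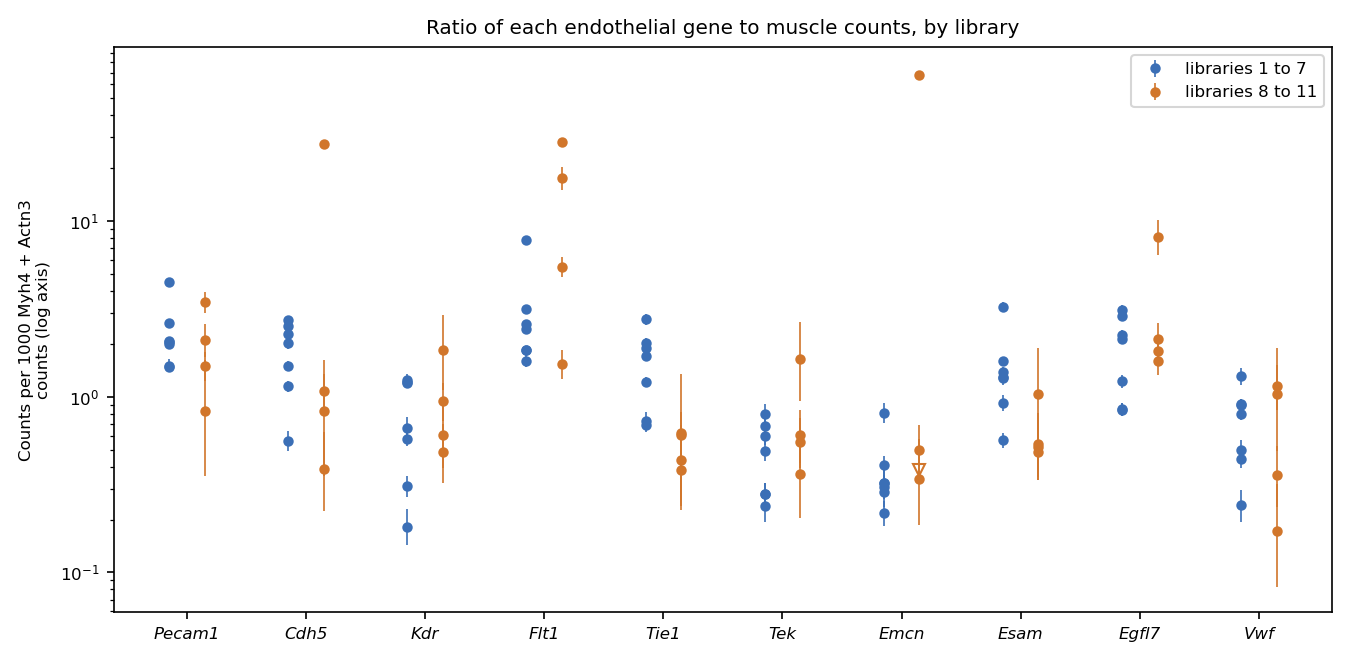
Counts of each of the 10 genes per 1000 counts of Myh4 plus Actn3, on a log axis, 1 point per library (blue, libraries 1 to 7; orange, libraries 8 to 11), with exact 95% binomial intervals. The open triangle is the upper bound for Emcn in F318 LOV, which had 0 counts. The 4 orange points of Tie1 lie below its blue points, and Emcn, Cdh5 and Flt1 each have 1 orange point, F339 ROV, far above.

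F339 ROV differed from the other lines in which endothelial genes it expressed. The 10 genes summed to 296.1 CPM there, against 14.2, 20.6 and 30.7 CPM in libraries 9, 10 and 11, and Emcn alone made up 51.9% of their counts. Emcn, Cdh5 and Flt1 together made up 94.3%, where the same genes took 27.0% to 44.7% in libraries 1 to 7, 54.8% in F318 LOV, 45.9% in F319 uterus and 34.0% in F333 uterus. Relative to the highest of the other 3 libraries of its set, F339 ROV was 91.9-fold higher for Emcn, 17.1-fold for Cdh5 and 7.66-fold for Flt1, and 1.56-fold for Pecam1. The other 6 were below that level, Kdr, Tie1 and Vwf among them.

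Of 36 further endothelial genes, 8 were also at least 5-fold above the other 3 libraries in F339 ROV, against 1.27% of all 15954 genes. They included Tal1, a transcription factor of blood and endothelial cells, at 66.0 CPM where the other 3 lines were at 0 to 0.259 CPM and libraries 1 to 7 reached 4.20 CPM. Cd93, a transmembrane receptor of endothelial and myeloid cells, was at 99.2 CPM against at most 3.99 CPM, and Ptprb, the phosphatase that acts on Tek, was at 70.1 CPM against at most 6.08 CPM. The transcription factors Sox7 (13.5-fold) and Erg (6.12-fold) and the genes Arhgef15 (9.03-fold), Ecscr (6.65-fold) and Myct1 (6.25-fold) completed the 8. Tal1, Cd93 and Ecscr were above all of libraries 1 to 7 in F339 ROV. Ptprb, Sox7, Erg, Arhgef15 and Myct1 were not, and Ptprb reached 107.8 CPM in libraries 1 to 7. Cldn5, the claudin of endothelial tight junctions, was not among them, being at most 1.86 CPM in libraries 8 to 11. The threshold of 5-fold and the choice of this line followed from the values of Emcn, Cdh5 and Flt1.

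**Figure D5:**
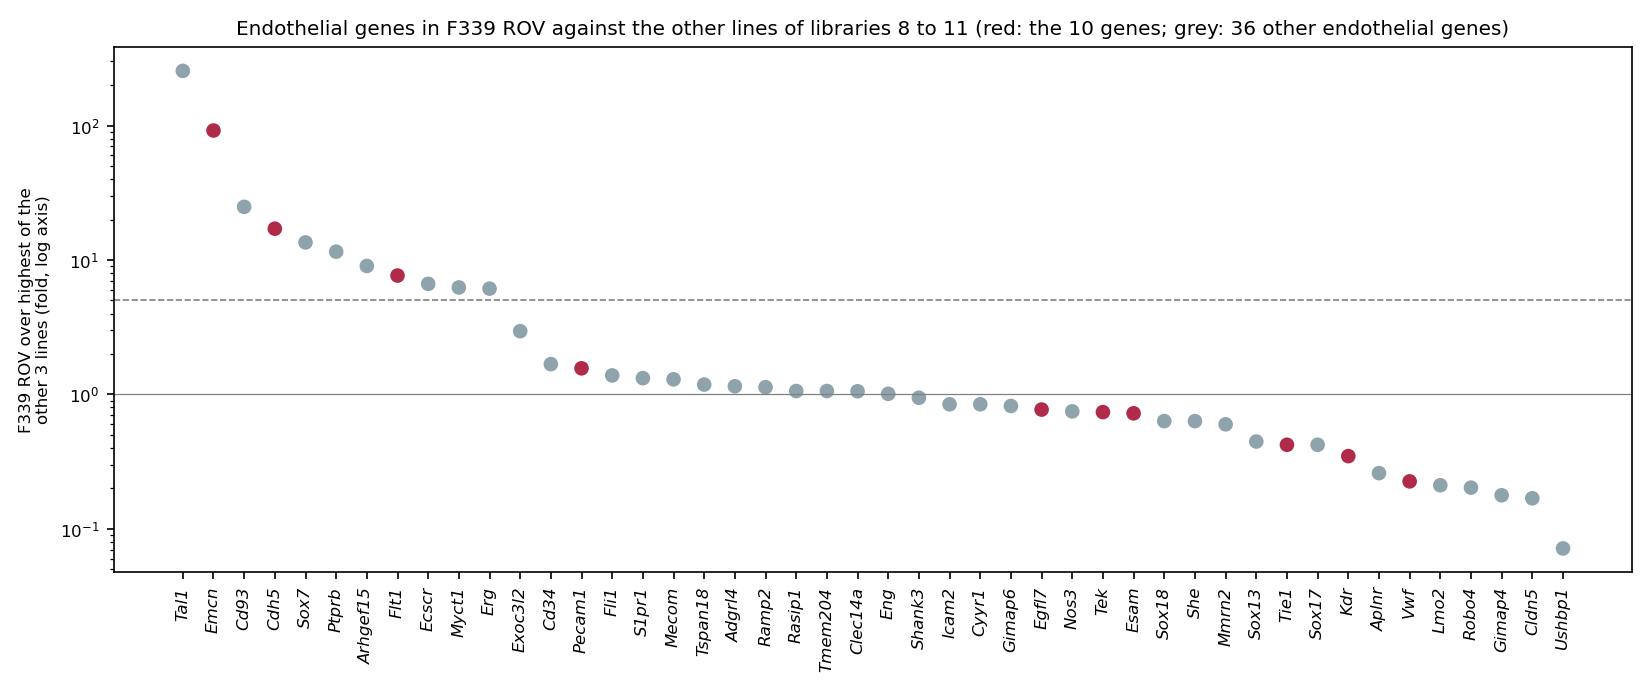
Level of each endothelial gene in F339 ROV over its highest level in the other 3 libraries of 8 to 11, on a log axis, genes ordered by this fold (red, the 10 genes; grey, 36 others). The dashed line marks 5-fold. Tal1, at 255.1-fold, and Emcn, at 91.9-fold, lead, and most genes lie near or below 1.

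The same 36 endothelial genes gave the wider picture between the library sets. In libraries 8 to 11, 25 were lower, 1 was higher and 10 were not called, where 29.9% of all genes were lower and 28.6% higher, and the median log2 fold change was -4.11. Without F339 ROV, 32 were lower and 0 higher. Cldn5 fell most, with a log2 fold change of -6.75 (adjusted p = 0.00032, edgeR). Mecom, a zinc-finger transcription factor, was the gene called higher at 1.54 (adjusted p = 0.0494, edgeR), a call that was lost with DESeq2 size factors in edgeR and without any 1 of libraries 1, 2, 4, 5, 6, 7 and 8. The genes not called were Sox7, Ptprb, Eng, Cd34, Ecscr, Tal1, Cd93, Myct1, Tspan18 and Arhgef15, 7 of which are among the 8 that passed 5-fold in F339 ROV.

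Genes of vessel subtypes followed in part, to be read against the same shares of 29.9% lower and 28.6% higher over all genes. Of 18 capillary, vein and artery genes tested, 13 were lower and 2 higher, with Tcf15, a factor of muscle and heart capillaries, at a log2 fold change of -6.02 (adjusted p = 0.000554) and Nr2f2, the vein factor COUP-TFII that stromal cells also express, at 2.07 (adjusted p = 0.000322, edgeR). All 5 lymphatic genes tested were lower, with Mmrn1, at most 2.66 CPM in any line, at -4.36. Of 10 pericyte genes, 5 were lower, led by the channel gene Kcnj8 (-5.24), and 1, the growth factor receptor Pdgfrb, was higher (1.81, adjusted p = 0.0281, edgeR).

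Of 12 angiogenic ligands and co-receptors, 2 were lower and 3 higher, shares that do not exceed the 29.9% and 28.6% of all genes, and 2 of the 3 higher were the co-receptors Nrp1 and Nrp2. Vegfb, a ligand of Flt1, fell by 3.05 on the log2 scale (adjusted p = 0.00011, edgeR), from 152.4 to 365.7 CPM in libraries 1 to 7 to 22.9 to 44.8 CPM in libraries 8 to 11. Angpt4, a ligand of Tek, rose by 3.22 (adjusted p = 0.00581, edgeR) from at most 2.80 CPM to between 5.34 and 26.0 CPM. Vegfa, the ligand of Kdr, was at 151.5 to 398.7 CPM and 226.4 to 577.9 CPM in the sets, with a log2 fold change of 0.18 (adjusted p = 0.658). Vegfc (0.80), Pgf (0.38), Angpt1 (-1.64) and Angpt2 (-0.06) were not called either.

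Transcripts of several other cell types moved with the 10 genes, with counts to be read against 29.9% of all genes lower and 28.6% higher. All 28 muscle fiber genes tested were lower in libraries 8 to 11, with a median log2 fold change of -4.43 and Ryr1, the calcium release channel, at -5.74, and their share of all counts was 7.46% to 14.5% in libraries 1 to 7 and 0.160% to 1.27% in libraries 8 to 11. So were all 5 erythroid genes (median -5.68; Hba-a1, an alpha globin, -5.77), 5 of 6 leukocyte genes (median -3.86; Tyrobp -4.37), 6 of 7 adipocyte genes (median -5.54; Retn, which encodes resistin, -6.17), all 3 satellite cell genes tested (median -4.75; Chrdl2 -4.92) and all 4 Y-linked genes (median -4.16; Kdm5d -5.06). Summed, the erythroid list was at 93.4 to 1215 CPM and 4.67 to 32.9 CPM in libraries 1 to 7 and 8 to 11, the leukocyte list at 35.9 to 103.3 CPM and 6.11 to 13.0 CPM, and the adipocyte list at 362.6 to 2200 CPM and 13.2 to 103.8 CPM. The satellite cell list summed to only 2.40 to 8.42 CPM and 0.0873 to 0.353 CPM. Its genes thus passed the filter on low counts through libraries 1 to 7 alone and could hardly be called other than lower. The Schwann cell list was mixed, with 3 of 6 genes lower, 1 higher (Pmp22, 1.33, adjusted p = 0.0102, edgeR) and 2 not called (Sox10 and Prx), and its sum was not lower, with libraries 1 to 7 at 70.5 to 141.7 CPM and the other 4 at 80.8 to 264.3 CPM. The epithelial list had 1 of 4 tested genes lower (Krt18, -5.29). The mesenchymal list had 2 of 9 lower, led by Lum (-4.08), and 4 higher, led by Fn1 (2.60). In neither list did the share lower exceed the 29.9% of all genes. The part of these cell types in the fall of the 10 genes was not tested.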

How the data were processed

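RNA from 11 lines was sequenced as paired-end reads of 150 bases with a directional polyA kit. Alignment by the authors was to GRCm38, in RNA STAR. They took out PCR duplicates (SAMtools RmDup) and deposited raw counts per gene from featureCounts, with no normalization. Tool versions and the strand setting are not given in the sources used here. Removing reads by position can lower counts of very abundant genes such as Myh4 more than those of scarce ones, and its size was not measurable from the counts. Groups and library numbers were taken from the titles and descriptions.

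CPM scales the counts of a library to a total of 1000000. Intervals (95%, Wilson or exact) and the floor of 3 counts cover counting error only. Exon lengths and positions are GENCODE M21 on GRCm38. Differential expression was tested with edgeR 4.0.16 (TMM, filterByExpr, quasi-likelihood, Benjamini-Hochberg adjusted p under 0.05 over all genes) in R 4.3.3, with DESeq2 1.42.0 as an alternative, and Python 3.11.15 was used for the tables. The SE is the log2 fold change divided by the root of the F statistic. With 1 library per line, p-values measure the spread between lines. In simulated counts on 16058 genes, the library set design recovered 100% of 8-fold and 100% of 4-fold changes with 9 false calls, and the tissue design, on 17188 genes, recovered 98% and 77% with 13 false calls. The simulated counts had the same dispersion for every gene, no shared mice and no changes other than those put in. These rates therefore do not give the power of the comparisons between the real lines.

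The genes, lists and library sets were chosen with earlier results of these data known, and a p-value for the sets carries that choice. Besides the 10 genes, those named are the called gene with the largest fall and rise of each list, Vegfa, Vegfb, Vegfc, Pgf, Angpt1 and Angpt2, the 5 genes most like the 10 in pattern, and the exceptions given as such. Gpihbp1 and Rgs5, the 5-fold comparison of F339 ROV with the genes it names, and the sum without Emcn, Cdh5 and Flt1 were chosen after values were seen. A gene that the rule for lists would name is not reported here.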

Additional observations from a re-analysis of the deposited data

Results flagged for a closer look

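In 33 tests, of the 10 genes and their sum in groups of 4 or 7 lines, 6 values lay far from the rest of their group by Dixon's criterion at 95%. Chance alone exceeds it in about 1 in 20 groups of independent, normally distributed values. Here the values were untransformed CPM, the groups shared lines and the sum was tested with its parts, so that rate need not hold. 5 of the 6 were F339 ROV. Cdh5 at 61.9 CPM, Flt1 at 63.8 CPM and Emcn at 153.5 CPM stood apart from the other 3 libraries of 8 to 11, whose highest values were 3.62, 8.32 and 1.67 CPM. Emcn at 153.5 CPM also stood apart among the 7 ovary lines, of which the next was at 14.7 CPM, and the summed 10 genes at 296.1 CPM followed from these. The remaining value was Kdr at 3.16 CPM in F333 uterus, where the next of libraries 8 to 11 was at 1.10 CPM. No explanation was tested for these values.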

How the results depend on the processing

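Of 170 alternative values for the log2 fold changes of the 10 genes, 163 kept direction and call, 3 gained a call (all Cdh5, with DESeq2, with the mouse as a block and without library 8), 2 lost one (Kdr with the mouse as a block, Flt1 among ovary lines) and 2 reversed. The 163 include Emcn with DESeq2, which gave it no adjusted p, so only its direction is known to have held. Both reversals were Emcn, at -6.27 with the mouse as a block and -4.22 without library 8, and over the libraries left out in turn it ran from -4.22 to 1.80. Genes called between the sets numbered 9337, and 2777 with the mouse as a block, in which only F318 and F319 inform the contrast. Genes called between uterus and ovary numbered 0, and 122 with DESeq2, 6 without a filter on low counts and 0 to 2 with a library left out. The median ratio of the 10 genes to Myh4 plus Actn3 in libraries 8 to 11 was 1.68 times that of libraries 1 to 7. It was 0.969 to 2.40 with a library left out (0.969 without library 8 or library 9, 2.40 without library 10 or library 11), 0.908 as the median of the genes' own ratios, 3.70 with pooled counts, 5.87 among ovary lines and 0.724 without Emcn, Cdh5 and Flt1, the last chosen after seeing the data. The cause of these differences was not tested. Depth limits the genes at a few counts in F318 LOV.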

Other observations

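Genes outside the lists were ranked by how closely they followed the mean log2(CPM + 1) of the 10 genes over the 11 lines, after each library set's own mean was removed. Of 14665 genes with a mean of at least 1 CPM, the closest were Epm2aip1 (Pearson r 0.958), Ubn1 (0.937), Pla2g4e (0.932), Heyl (0.932) and Zfp219 (0.931). Among the 10 genes themselves r with their mean ran from 0.499 for Vwf to 0.927 for Cdh5. Epm2aip1 was at 23.5 to 59.7 CPM over the lines, highest in F339 ROV, and Heyl, a Notch target gene, was at 0 to 10.9 CPM, also highest there. Pla2g4e had another range, with libraries 1 to 7 at 32.9 to 90.6 CPM and the other 4 at 0.262 to 2.04 CPM. The points share libraries and depth, 4 mice gave 2 lines each, and the values of F339 ROV weigh heavily, so the ranking is a description.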
